A study of Mus musculus with 6 samples.

Results

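Regulatory T (Treg) cells differentiated with or without sorafenib (Sora) were examined for 10 genes of the Foxp3 network, out of 22939 genes in the deposited table. They were chosen by symbol and comprise Foxp3, the long noncoding RNA Flicr from the Foxp3 locus, the Ikaros family genes Ikzf1, Ikzf2, Ikzf3 and Ikzf4, the chromatin organizer Satb1, the RUNX pair Runx1 and Cbfb, and Foxp1. All 10 were in the table and all 10 passed the filter on low counts. The 6 libraries were 3 of control cells (ctrl-Treg), whose vehicle the labels do not give, and 3 of treated cells (Sora-Treg). According to the methods of the study, naive CD4 T cells from the spleen and lymph nodes of mice (C57BL/6J) that carry GFP as a reporter at Foxp3 were stimulated through CD3 and CD28 with TGF-β1 and antibodies against IFN-γ and IL4, and GFP-positive cells were then sorted. Every library in both groups therefore carried the reporter allele and went through the same skewing and the same gate, and the groups differed by Sora, a multikinase inhibitor used in liver cancer. The labels give neither the dose of Sora nor the age of the animals, and do not say whether the libraries came from separate mice or cultures, so that p-values measure the spread between these libraries, which may be technical. In bulk RNA, fewer cells of a type and less RNA per cell cannot be told apart.

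Foxp3 is the forkhead transcription factor that defines the Treg lineage, and it acts in large complexes with other DNA-binding proteins. Runx1 with its partner subunit Cbfb binds Foxp3 and is also needed for Foxp3 transcription. Foxp1 is a related forkhead factor that can pair with Foxp3. The Ikaros zinc finger proteins Ikaros (Ikzf1), Helios (Ikzf2), Aiolos (Ikzf3) and Eos (Ikzf4) differ in their distribution among T cell subsets, and Helios and Eos are known for their enrichment in Treg cells. Satb1 folds chromatin in T cells and is known as a gene that Foxp3 represses. Flicr is a noncoding RNA of the locus that has been described as a negative regulator of Foxp3.

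Total counts per library ranged from 30727686 to 37717324, and the biological coefficient of variation was 4.29%. Values are library-normalized read counts (CPM) scaled by the trimmed mean of M values (TMM), and differences are log2 fold changes of Sora-Treg over ctrl-Treg cells from the quasi-likelihood test of edgeR, with adjusted p-values over 13463 tested genes. The T cell genes Cd3d, Cd3e, Cd3g, Cd247, Cd4 and Cd28 were all present, while Trac was not in the table. All 6 were higher in Sora-Treg cells (edgeR adjusted p under 0.05), as were 29.7% of all tested genes. Their summed levels were 1495 to 1514 CPM across the controls and 2118 to 2154 CPM under Sora. Of 7 myeloid genes, Lyz2 and Adgre1 among them, 5 were lower (29.9% of all tested genes were). Their summed levels were 24.9 to 93.3 CPM across the controls and 20.7 to 43.0 CPM under Sora, and control replicates 1 and 2 were the high ones. Of 6 B-cell genes, 5 were tested and all 5 were lower (29.9% of all tested genes were), with summed levels of 10.1 to 11.3 CPM against 6.15 to 7.91 CPM. Of the 2 CD8 genes, 1 was lower and 1 did not pass, with sums of 13.2 to 15.1 CPM and 12.6 to 13.8 CPM. Of 3 plasmacytoid dendritic genes, 2 were in the table, and these 2 were lower (29.9% of all tested genes were). Their sums, mostly Bst2, were 59.0 to 64.0 CPM and 42.3 to 44.1 CPM. Natural killer and erythroid genes summed to at most 0.297 and 0.157 CPM in any library. Ikzf1, Ikzf3, Runx1 and Foxp1 are also expressed by B cells or myeloid cells, and the part of such cells in their changes was not tested. Their log2 fold changes without control replicates 1 and 2 are given below.

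Of the 10 genes, 8 passed an adjusted p of 0.05 (edgeR), against 59.6% of all tested genes. Flicr, Satb1, Ikzf4, Runx1, Foxp1 and Foxp3 were higher in Sora-Treg cells (29.7% of all tested genes were), Ikzf1 and Ikzf3 were lower (29.9% of all), and Ikzf2 and Cbfb did not pass. Satb1 and Flicr were the 2 that also exceeded the 2-fold limit of the study, which 11.3% of all tested genes did. Flicr was under that limit with libraries scaled by their totals (log2 fold change 0.98) and without control replicates 1 and 2 (0.95). The median absolute log2 fold change was 0.16 over the 10 genes and 0.28 over all tested genes. By size of change Satb1 and Flicr lay above the median of all tested genes, and the other 8 lay below it, with Ikzf4 at the 49.9th percentile. The groups did not overlap in 7 of the 10 genes, against 63.7% of all tested genes. Scaling mattered for the small changes. With libraries scaled by their totals, which shifted the median over all genes from -0.0035 to -0.12 on the log2 scale, 4 of the 10 were higher (Flicr, Satb1, Ikzf4 and Runx1) and 4 lower (Ikzf1, Ikzf2, Ikzf3 and Cbfb). That scaling put Ikzf1 at -0.21, Ikzf3 at -0.30, Ikzf4 at 0.16 and Runx1 at 0.13 on the log2 scale. Without control replicates 1 and 2, the log2 fold change of Foxp3 was 0.11, against 0.074 with all libraries. In that fit Ikzf1 was at -0.11, Ikzf3 at -0.19, Runx1 at 0.19 and Foxp1 at 0.14. The remaining control library was then assumed to vary like the others.

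**Figure D1:**
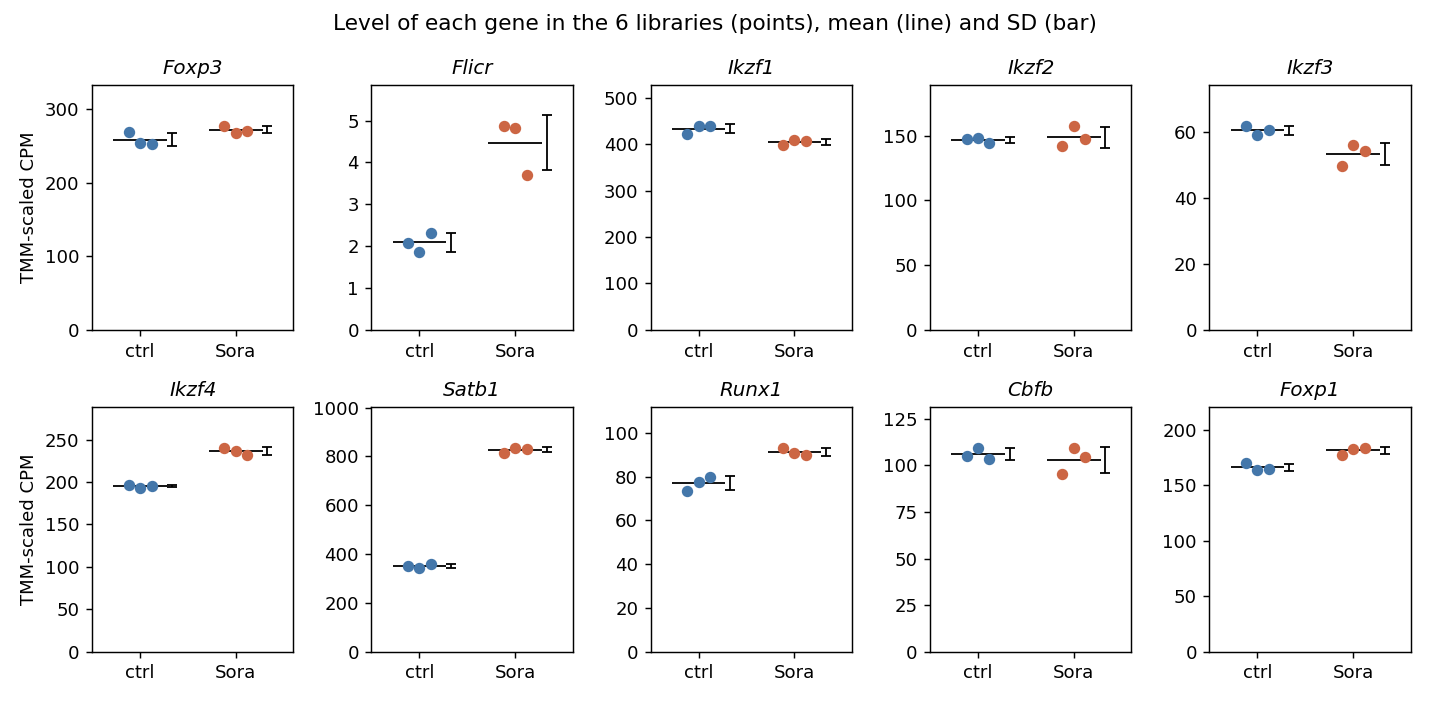
TMM-scaled CPM (vertical axes from 0, a separate scale for each gene) in the 3 ctrl-Treg libraries (blue) and the 3 Sora-Treg libraries (orange), with the mean as a line and the SD as a bar. Satb1 and Flicr sit well apart between the groups, while the points of Foxp3, Ikzf2 and Cbfb overlap.

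Foxp3 was at nearly the same level in both groups of sorted cells. Its level was 269, 254 and 252 CPM across the controls and 278, 268 and 271 CPM under Sora. Control replicate 1 lay inside the range of the Sora-Treg libraries, so the groups overlapped. The log2 fold change was 0.074 ± 0.031 (SE, by edgeR, adjusted p = 0.0405) or 5.30%, which lay at the 15.8th percentile of all tested genes by size. The call was lost without control replicate 2, control replicate 3, sorafenib replicate 1 or sorafenib replicate 3, with edgeR adjusted p-values of 0.117, 0.176, 0.101 and 0.0690. The FPKM values, which are scaled by library totals, went the other way, from a mean of 68.5 in ctrl-Treg to 66.6 in Sora-Treg cells. Because the cells were gated on a reporter of this gene, its level was read only within the gate.

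Flicr, in contrast, was low in every library and doubled. It had 82, 68 and 74 counts across the controls and 148, 154 and 132 counts under Sora, or 2.08, 1.87 and 2.32 CPM against 4.88, 4.83 and 3.71 CPM. All 3 Sora-Treg libraries lay above all 3 ctrl-Treg libraries. The log2 fold change was 1.10 ± 0.19 (SE, by edgeR, adjusted p = 2.27e-05), and leaving out 1 library at a time gave 1.03 to 1.22. The ratio of Flicr to Foxp3, taken within each library from FPKM and so free of library scaling, rose 2.02-fold, from 0.0092 to 0.019 (exact permutation p = 0.1, the smallest that 3 samples against 3 allow).

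The position of Flicr bears on how its reads can be assigned. In RefSeq on GRCm38.p6, Foxp3 lies on chromosome X from 7579676 to 7595243 and Flicr from 7573600 to 7581016, so that 1341 bases are shared. These positions are those of the annotation, and the build used for counting is uncertain. Both run in the same direction, and Flicr starts within a coding exon of Ppp1r3f, which runs the opposite way. GENCODE M21, on the same build, also lists a Foxp3 transcript that starts 6032 bases before the RefSeq start and has 3 exons that overlap Flicr exons, over 477 bases. In that annotation 853 exonic bases, 23.8% of the exonic length of Flicr, are shared with Foxp3 and 310 with Ppp1r3f. Whether the counting used strand, and how it treated reads that match both genes, are not given in the sources used here. Counts of Flicr can therefore not be fully separated from those of its neighbours. The same limit holds for Foxp3, which shares 18.6% of its exonic length with Flicr and 12.9% with Ccdc22 on the opposite strand.

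Ppp1r3f and Ccdc22, the protein-coding genes that overlap Flicr and Foxp3 on the opposite strand, were both higher in Sora-Treg cells, as were 29.7% of all tested genes. GENCODE also lists the processed transcript Gm36995 across both on that strand, which was not analysed here. Ppp1r3f, which encodes a regulatory subunit of a protein phosphatase and overlaps the start of Flicr, had 11.4, 11.5 and 10.7 CPM across the controls and 23.1, 23.6 and 23.3 CPM under Sora. It rose by a log2 fold change of 1.06 ± 0.08 (SE, by edgeR, adjusted p = 3.03e-11), close in size to that of Flicr. Ccdc22, which encodes a protein of endosomal sorting and overlaps the far end of Foxp3 on the opposite strand, rose by 0.26 ± 0.08 on the log2 scale (SE, by edgeR, adjusted p = 0.00674). The calcium channel gene Cacna1f, next beyond Ccdc22, had between 2 and 19 counts per library and was not tested.

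**Figure D2:**
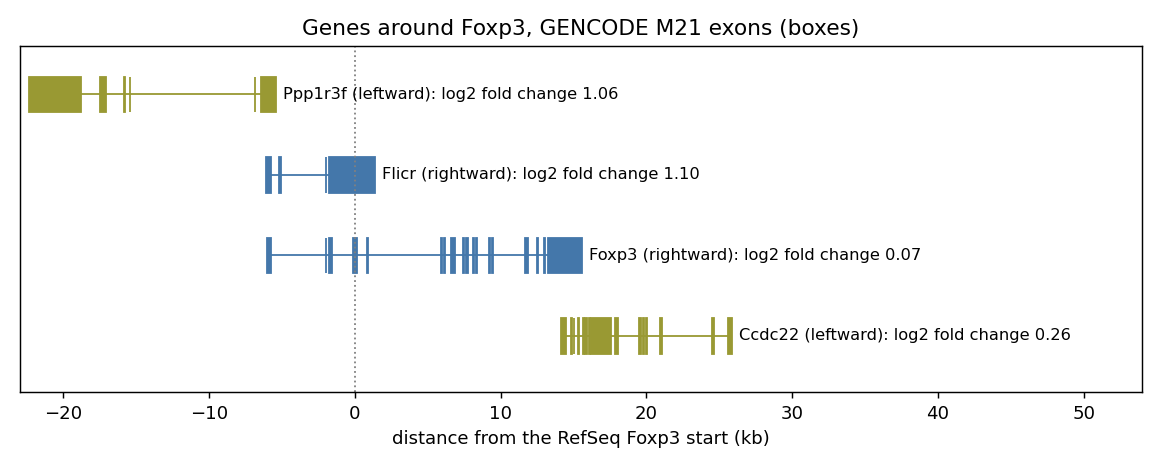
Exons (boxes) and spans (lines) of the genes around Foxp3 by distance in kb from the RefSeq start of Foxp3 (dotted line), blue for genes that run rightward and olive for genes that run leftward. Flicr starts inside Ppp1r3f and ends past the Foxp3 start, and both have log2 fold changes near 1 (1.10 and 1.06), while Foxp3 has 0.07.

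The sequences at these starts are shown because Flicr and Satb1 were the genes of the set that changed most and because Flicr runs through the Foxp3 promoter. They were read from RefSeq promoter windows on GRCm38.p6, of which 7 of the 10 genes had at least 1 and which came to 16 in all. Ikzf2, Ikzf3 and Ikzf4 had none. The windows were searched over the 250 bases before each start, on both strands, for short core motifs. The RUNX letters were TGTGGT. The letters of the Ikaros core were TGGGAA, those of the forkhead core TGTTTAC, and those of the NFAT core GGAAA, which can overlap the Ikaros letters. The letters searched for the promoter box that TBP binds were TATAAA. Capitals mark matches. The Foxp3 stretch is chrX:7579426-7579566 on the plus strand, which in GENCODE lies in the last exon of Flicr. The TATA stretch, printed as Foxp3 start, is chrX:7579632-7579661 on the plus strand and ends before the RefSeq start of Foxp3. Its TATA letters begin 32 bases before that start. GENCODE also lists a Foxp3 exon that begins at -0.109 kb from it, so that in GENCODE the letters lie within an exon. The Flicr stretch is chrX:7573350-7573599 on the plus strand, in the coding exon of Ppp1r3f. The Satb1 stretch is chr17:51833291-51833540, given on the minus strand, before the most upstream of 5 starts and within an exon of Gm6934, a transcript that GENCODE lists on the other strand.
Foxp3 upstream: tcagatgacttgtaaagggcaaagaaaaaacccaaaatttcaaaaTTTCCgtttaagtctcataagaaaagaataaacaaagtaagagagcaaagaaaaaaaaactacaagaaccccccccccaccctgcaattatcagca
Foxp3 start: ttttcttctcggTATAAAagcaaagttgtt
Flicr upstream: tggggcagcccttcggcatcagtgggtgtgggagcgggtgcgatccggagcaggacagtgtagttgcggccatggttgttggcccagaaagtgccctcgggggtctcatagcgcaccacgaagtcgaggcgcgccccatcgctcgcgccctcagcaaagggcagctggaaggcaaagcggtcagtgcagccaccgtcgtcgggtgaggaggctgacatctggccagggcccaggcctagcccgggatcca
Satb1 upstream: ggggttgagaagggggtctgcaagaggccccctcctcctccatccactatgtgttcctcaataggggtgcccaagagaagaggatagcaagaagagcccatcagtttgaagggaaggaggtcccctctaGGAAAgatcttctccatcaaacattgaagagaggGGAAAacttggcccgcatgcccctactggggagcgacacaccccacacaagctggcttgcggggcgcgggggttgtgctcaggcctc

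The NFAT letters were in 8 of the 16 windows, against 55.6% of 32817 windows of all genes, with 1 match in the Foxp3 stretch above and 2 in the Satb1 stretch. A pair of the Satb1 windows overlap and hold the same NFAT match, which is counted in each. The TATA letters were in 1 of the 16 windows, that of Foxp3, against 12.4% of all windows. The RUNX letters were in 0 of the 16 (14.0% of all), the forkhead letters in 0 (3.16% of all) and the Ikaros letters in 1, a downstream start of Satb1 (21.6% of all). The Flicr window held none of the 5 motifs. A match describes letters only.

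Satb1 had the largest change of the set and, in Sora-Treg cells, more counts than any other of the 10 genes. It lies on chromosome 17 from 51736187 to 51833290, and its level was 351, 344 and 361 CPM across the controls and 815, 837 and 832 CPM under Sora. The groups were far apart, with a spread within each of 8.12 and 11.6 CPM (SD, n = 3). Satb1 rose by a log2 fold change of 1.23 ± 0.03 (SE, by edgeR, adjusted p = 1.07e-20), at the 91.4th percentile by size, and it ranged from 1.09 to 1.25 over the 17 alternatives. Within each library the ratio of Foxp3 to Satb1 by FPKM fell from a mean of 2.48 to 1.11 (exact permutation p = 0.1). Satb1 RNA, known as a target of repression by Foxp3, was thus more abundant beside nearly the same level of Foxp3 RNA, and the cause was not tested.

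In the Ikaros family the members went different ways. In RefSeq, Ikzf1 and Ikzf3 lie on chromosome 11 (11684962 to 11772930 and 98464610 to 98546031), Ikzf2 on chromosome 1 (69531207 to 69687351) and Ikzf4 on chromosome 10 (128630839 to 128669671). Ikzf4, which encodes the Foxp3 corepressor partner Eos, had 196, 194 and 196 CPM across the controls and 241, 237 and 232 CPM under Sora. These ranges did not overlap, and Ikzf4 rose by 21.2%, a log2 fold change of 0.28 ± 0.03 (SE, by edgeR, adjusted p = 2.62e-08). Ikzf2, which encodes Helios, had 148, 148 and 144 CPM against 142, 158 and 147 CPM, and its Sora-Treg libraries lay on both sides of the controls. Its log2 fold change of 0.021 ± 0.037 did not pass (SE, by edgeR, adjusted p = 0.654) and was -0.020 without sorafenib replicate 2.

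Ikzf1 and Ikzf3 were lower in Sora-Treg cells. Ikzf1, which encodes Ikaros, the founding member of the family and a regulator of lymphocyte development, had 422, 439 and 438 CPM across the controls and 398, 409 and 407 CPM under Sora. It fell by 6.56%, a log2 fold change of -0.098 ± 0.027 (SE, by edgeR, adjusted p = 0.0034). Ikzf3, which encodes Aiolos, a repressor of Il2, had 61.9, 59.0 and 60.6 CPM against 49.6, 56.0 and 54.1 CPM, without overlap. Ikzf3 fell, with a log2 fold change of -0.18 ± 0.05 (SE, by edgeR, adjusted p = 0.0020), which lay between -0.22 and -0.13 with any library left out. The fifth member of the family, Ikzf5 (Pegasus), had a log2 fold change of -0.12 ± 0.07 that did not pass (SE, by edgeR, adjusted p = 0.144).

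The make-up of Ikaros family RNA in each library, as shares of summed FPKM, does not depend on library scaling. It does depend on the deposited gene lengths, as does the level of each ratio by FPKM. These lengths are 8936 bases for Ikzf3, 9571 for Ikzf4 and 6331 for Ikzf1, against 4607, 5150 and 5163 for their longest GENCODE M21 transcripts. The shares are thus read for differences between the groups, not as true proportions. They also add up to a fixed total in each library. A higher share of a gene therefore lowers those of others, and their differences are not separate results. Ikzf1 held 59.7%, 60.9% and 60.8% of it across the controls and 57.0%, 56.8% and 57.5% under Sora. The share of Ikzf4 was 17.8% to 18.4% in ctrl-Treg and 21.7% to 22.8% in Sora-Treg libraries, a difference of 4.04 percentage points. Ikzf3 went from 5.99% ± 0.21 to 5.32% ± 0.25 (SD, n = 3), and the groups did not overlap for these 3 genes or for Ikzf5 (3.40% and 3.16%). The share of Ikzf2 was 12.1% ± 0.27 and 12.4% ± 0.47 (SD, n = 3) with overlap. Of Helios and Eos, the ratio of Ikzf2 to Ikzf4 was 0.67 for the controls and 0.56 under Sora, without overlap between the libraries (exact permutation p = 0.1). In all, 15 ratios and shares were compared, and the smallest p adjusted over them was 0.136, since the design allows none below 0.1 for each.

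**Figure D3:**
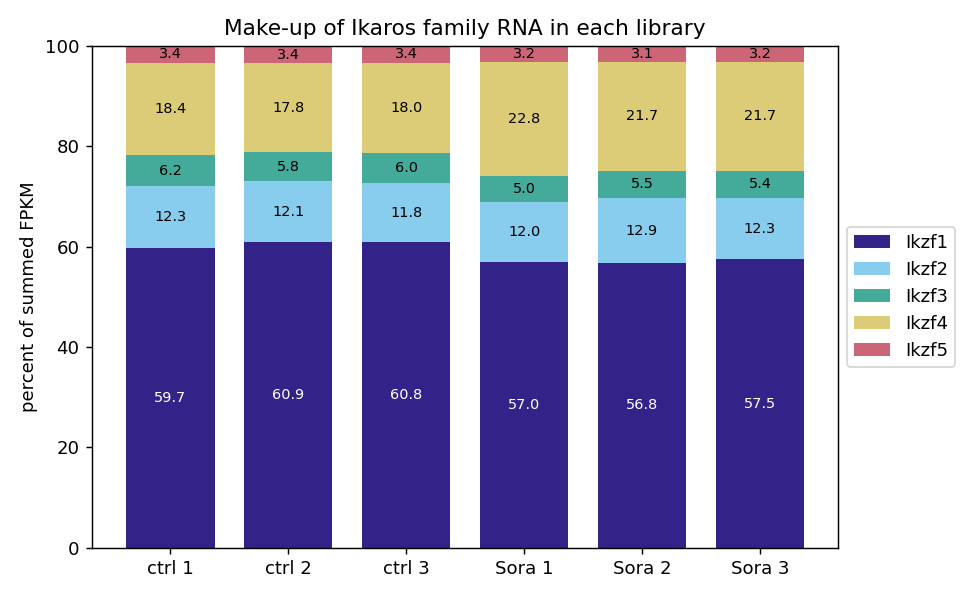
Share of each Ikaros family gene in the summed FPKM of Ikzf1 to Ikzf5 (percent, stacked to 100) in each of the 6 libraries. Ikzf4 takes 17.8% to 18.4% in the ctrl-Treg libraries and 21.7% to 22.8% in the Sora-Treg libraries, and Ikzf1 is correspondingly smaller in the latter.

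Of the RUNX pair, Runx1 (chromosome 16, 92601466 to 92826074) rose and Cbfb (chromosome 8, 105170674 to 105217989) did not pass the test. Runx1, the DNA-binding subunit, had 73.6, 77.5 and 80.0 CPM across the controls and 93.3, 90.7 and 89.8 CPM under Sora. All Sora-Treg libraries were above all controls, with a log2 fold change of 0.25 ± 0.04 (SE, by edgeR, adjusted p = 1.50e-05). It was 0.19 (edgeR adjusted p = 0.0149) when control replicates 1 and 2, the libraries with more myeloid RNA, were both left out. Cbfb, the non-DNA-binding subunit that stabilizes RUNX proteins, had 105, 110 and 103 CPM against 95.2, 109 and 104 CPM. The groups overlapped, and the log2 fold change of -0.042 ± 0.044 (SE, by edgeR, adjusted p = 0.424) was 0.013 without sorafenib replicate 1. The ratio of Runx1 to Cbfb by FPKM nevertheless went from 0.295 to 0.361 without overlap (exact permutation p = 0.1).

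The other RUNX genes also rose. Runx3, known for its role in cytotoxic T cells and the major RUNX gene by counts here, went from 159 ± 2.79 CPM to 350 ± 7.85 CPM (n = 3, SD) with a log2 fold change of 1.14 ± 0.03 (SE, by edgeR, adjusted p = 4.23e-19). The ratio of Runx1 to Runx3 by FPKM thus fell from 0.288 to 0.155 without overlap between the libraries (exact permutation p = 0.1). Runx2, a bone regulator that T cells also express, rose from 23.4 ± 0.65 CPM to 35.3 ± 2.13 CPM (n = 3, SD, edgeR adjusted p = 1.78e-08).

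Foxp1 (chromosome 6, 98925342 to 99522746) was slightly higher. It had 170, 164 and 164 CPM across the controls and 177, 183 and 184 CPM under Sora, without overlap. The log2 fold change was 0.13 ± 0.03 (SE, by edgeR, adjusted p = 0.0014), but with libraries scaled by their totals it was 0.011 and did not pass. The ratio of Foxp3 to Foxp1 by FPKM was 12.9 for the controls and 12.4 under Sora, with overlap (exact permutation p = 0.3). Of the remaining FOXP genes, Foxp4 fell from 105 ± 2.45 CPM to 72.7 ± 3.29 CPM (n = 3, SD) with a log2 fold change of -0.53 ± 0.04 (SE, by edgeR, adjusted p = 1.09e-10). Foxp2 had a mean level of at most 0.047 CPM in either group and was not tested.

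**Figure D4:**
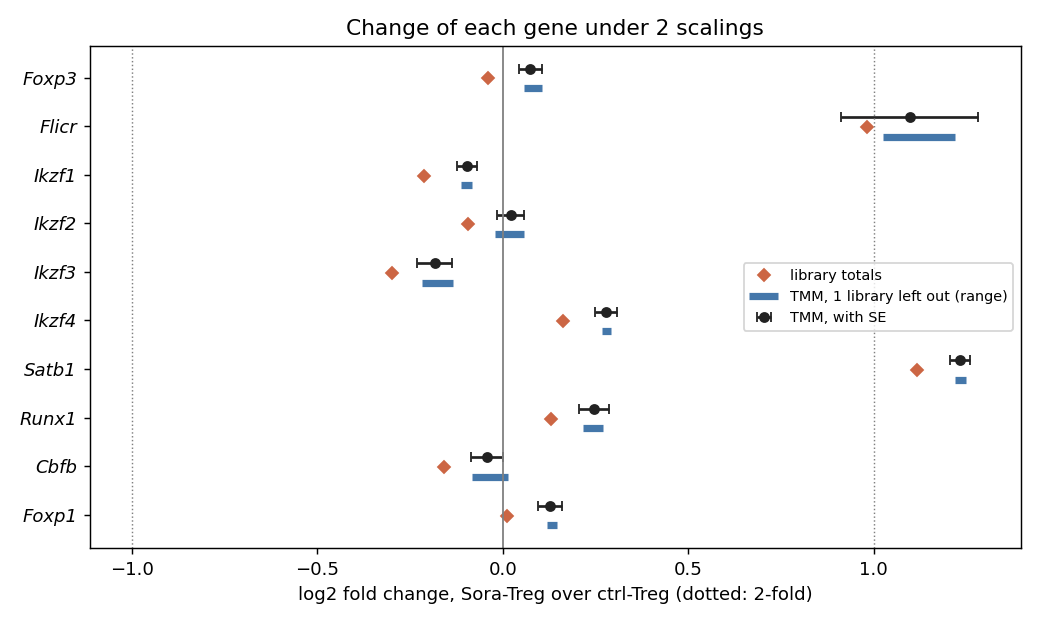
Log2 fold change of each of the 10 genes with TMM scaling (black points, bars are SE), its range with each library left out in turn (blue bars), and its value with libraries scaled by their totals (orange diamonds); dotted lines mark 2-fold. Satb1 and Flicr stand near or beyond 1, and the signs of Foxp3 and Ikzf2 differ between the scalings.

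Levels can be compared between genes only per length. By FPKM, the order in ctrl-Treg cells was Ikzf1 (71.1), Foxp3 (68.5), Cbfb (36.9), Satb1 (27.7), Ikzf4 (21.2), Ikzf2 (14.2), Runx1 (10.9), Ikzf3 (7.04), Foxp1 (5.32) and Flicr (0.63). Ikzf1 and Foxp3 were the neighbours in that order whose libraries overlapped. In Sora-Treg cells Foxp3 came first (66.6), followed by Ikzf1 (61.4) and Satb1 (60.01), of which the latter pair overlapped, as did Ikzf3 (5.72) and Foxp1 (5.36). This order rests on the deposited gene lengths, which run to 32491 bases for Foxp1 and 13246 for Satb1, while their longest GENCODE M21 transcripts have 7177 and 6243 bases. Per length of the longest transcript, Satb1 came after Ikzf1 and Foxp3 in ctrl-Treg cells and before both in Sora-Treg cells, and Foxp1 moved up from the ninth to the sixth place in both groups.

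Genes with the profile most like that of Foxp3 over the 6 libraries, by the root mean square difference of centred log2 CPM among 5651 well-expressed genes, were Swi5 (0.0146), Chmp7 (0.0173) and Osbpl11 (0.0174). They had log2 fold changes of 0.071, 0.095 and 0.068. For Satb1 they were Cyp11a1 (0.0293), the first enzyme of steroid synthesis, Acvrl1 (0.0309), a receptor of the TGF-β family, and Fxyd5 (0.0338), with log2 fold changes of 1.22, 1.25 and 1.27. These are descriptions of 2 groups of 3 libraries, so that genes with a like fold change lie close to each other.

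Genes of other proteins that bind Foxp3 were called in both directions, as were 29.7% (higher) and 29.9% (lower) of all tested genes. Of 26 such genes, which include Runx2, Runx3 and Foxp4 and were all tested, 12 were higher, 7 were lower and 7 did not pass, with a median log2 fold change of 0.068 against -0.0035 over all tested genes. Those with the smallest adjusted p were Hif1a, the oxygen-sensing factor, Runx3, Stat3, the factor downstream of IL6, and Irf4, a factor of effector Treg cells, with log2 fold changes of 1.39 ± 0.03, 1.14 ± 0.03, 0.78 ± 0.02 and 0.57 ± 0.02 (SE, by edgeR, adjusted p = 1.79e-20, 4.23e-19, 8.60e-18 and 2.51e-15). With libraries scaled by their totals, 12 were lower in place of 7.

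Of 24 regulators of Foxp3 transcription, 8 were higher, 13 were lower and 3 did not pass, beside 29.7% and 29.9% of all tested genes that were higher and lower. The median log2 fold change was -0.17, against -0.0035 over all tested genes. The list was not divided into activators and repressors of Foxp3, so neither these counts nor the median has a direction for Foxp3. The nuclear receptors Nr4a3 and Nr4a1, which are induced by T cell receptor signals and activate the Foxp3 promoter, fell by 1.68 and 1.31 on the log2 scale (edgeR adjusted p = 3.00e-21 and 1.10e-19). Uhrf1, which guides maintenance DNA methylation, and Nfatc1, a calcium-regulated factor, fell by 0.76 and 0.72 (edgeR adjusted p = 1.65e-14 and 1.15e-14).

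Genes that Foxp3 is known to raise were mostly higher. Foxp3 RNA differed by little within the gate, Foxp3 protein was not measured here, and the cause of the rise was not tested. Of 12, 10 rose (29.7% of all tested genes did), 1 fell (Nrp1, by 0.76 on the log2 scale) and Itgae did not pass, with a median of 0.63 against -0.0035 over all tested genes. Icos and Ctla4, costimulatory and inhibitory receptors, had log2 fold changes of 1.61 ± 0.03 and 1.53 ± 0.03 (SE, by edgeR, adjusted p = 7.62e-22 and 7.94e-22). Il2ra, the high-affinity IL2 receptor chain, and Lrrc32, which tethers latent TGF-β, had 0.97 ± 0.02 and 0.96 ± 0.03 (SE, by edgeR, adjusted p = 1.85e-20 and 1.98e-18). Of 7 genes that Foxp3 is known to repress, the cytokine gene Il2 (74.2 to 1.53 CPM) and the naive-cell factor Tcf7 fell by 5.59 and 1.24 on the log2 scale, the cytokine gene Il21 and the phosphodiesterase gene Pde3b rose by 2.31 and 0.67 and Ifng, Il4 and Il17a did not pass, with a median of -0.051. Of all tested genes, 29.7% rose and 29.9% fell. Satb1, of the same kind, rose as described above.

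**Figure D5:**
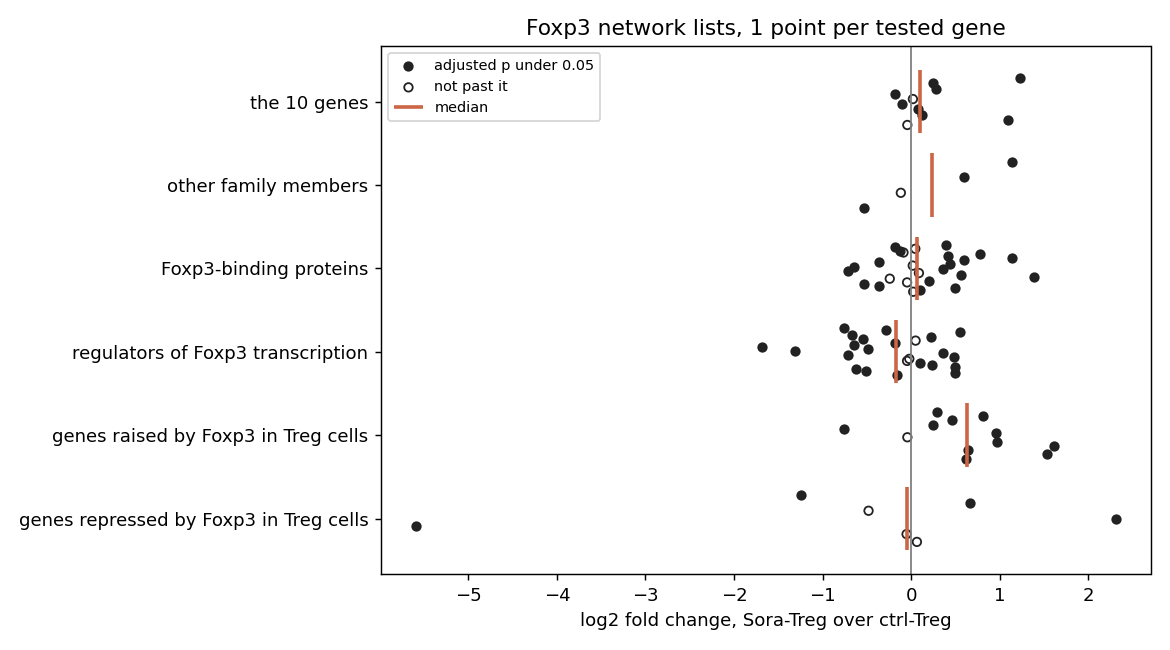
Log2 fold change of every tested gene (points, filled where the edgeR adjusted p is under 0.05) in the 10 genes and the 5 lists around them, with the median as an orange line. Most genes raised by Foxp3 lie to the right (median 0.63), regulators of Foxp3 transcription have a median of -0.17, and the genes repressed by Foxp3 spread from -5.59 to 2.31.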

How the data were processed

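RNA-seq of 6 libraries was read from 2 tables. A deposited table holds unnormalized counts by gene symbol, and the other holds FPKM for these genes as the authors computed it. Dividing a count by a fixed length for its gene and by its library's total gave the FPKM value, so it is no separate measurement. The methods of the study name Bowtie2 and GRCm38, while the submitters' processing notes name fastp, HISAT2, HTSeq, R 3.2.0, DESeq2 and GRCm39. Annotation release and strand setting are not given in the sources used here.

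Differences were tested by quasi-likelihood in edgeR 4.0.16 (R 4.3.3) with TMM scaling, the filterByExpr filter, no covariate and Benjamini-Hochberg adjustment over 13463 genes. The SE is the one that the F statistic implies. Genes passed at an adjusted p under 0.05, and the fold limit was 2. At these depths 3 counts correspond to 0.0762 to 0.0989 CPM, which covers counting error only. Ratios were tested with a two-sided exact permutation test. Libraries of a group differed by more than sampling noise (chi-square over degrees of freedom, 3.48 to 6.23), and none was a copy. Scripts were tested on simulated data.

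The 10 genes and all lists were chosen with earlier results of these data known, and the lists come from general knowledge. All 10 genes, the family members and genes that overlap or border Foxp3 are named, with at most 4 genes per list by adjusted p. Of the family members, 1 is not reported here. Names outside that rule (Nrp1, Itgae, Syp, the cell type markers and the genes repressed by Foxp3 that did not pass) were chosen after their values were seen. Alternatives were RLE, upper quartile and total-count scaling, other filters, DESeq2 1.42.0, robust fitting, a replicate block, each library left out, and limma 3.58.1 on log2(FPKM + 1) or log2(FPKM + 0.1), which shrinks the change of low genes.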

Additional observations from a re-analysis of the deposited data

How the results depend on the processing

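Of the 10 genes, Satb1, Flicr, Ikzf4, Runx1, Ikzf1 and Ikzf3 kept their direction and call under all 17 alternatives. With library totals alone 4 genes were lower and 1 passed the fold limit, and 1 also passed it on log2(FPKM + 1), on log2(FPKM + 0.1) and, chosen after seeing the data, without both control replicates 1 and 2. In these Flicr was 0.98, 0.46, 0.88 and 0.95. Foxp3 was -0.041, -0.039 and -0.040 with library totals alone and on log2(FPKM + 1) and log2(FPKM + 0.1). With upper quartile scaling it was 0.037, and keeping every gene with any count gave 0.059. Foxp3 did not pass in any of these fits, and leaving out single libraries gave 0.056 to 0.11. Ikzf2 was -0.0174 with upper quartile scaling, -0.0948 with library totals alone, -0.0892 and -0.0951 on FPKM, and -0.0199 without sorafenib replicate 2, and between -0.0199 and 0.0577 over the 6 fits that each drop a library. Cbfb was 0.0133 without sorafenib replicate 1, between -0.0839 and 0.0133 over those fits, and was called lower with library totals alone (-0.158) and on FPKM (-0.155 and -0.159), where Foxp1 was not called. Scaling by totals shifts all genes alike, and for the other changes the cause was not tested. In the lists, 12 Foxp3-binding proteins were lower with library totals alone and 11 on either FPKM scale. Of the other family members 2 were lower with library totals alone, on FPKM, with DESeq2 and when every gene with any count was kept, and of the genes raised by Foxp3 2 were lower with library totals alone and on FPKM. The ratios and shares were recomputed from raw counts and with each library left out, and kept their direction in these 7 alternatives. For the ratios, raw counts must give the same difference as FPKM, because each gene has a fixed length. Where the groups do not overlap, leaving out a library cannot reverse the direction either, so these alternatives add little.

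Same-numbered libraries showed no pairing, with correlations of their deviations of -0.0438, 0.0591 and 0.0299, and 3 of 6 libraries correlated best with their own number. With the replicate block 6 genes were higher and 2 lower, and the log2 fold change of Satb1 was 1.23. Depth limits Flicr most, which had at most 154 counts per library.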

Other observations

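Farther along the X chromosome, Syp, which encodes synaptophysin and starts 58.9 kb beyond the RefSeq start of Foxp3, was chosen after its values were seen. It had 6.20, 5.96 and 6.36 CPM across the controls and 34.9, 34.7 and 31.7 CPM under Sora. The log2 fold change was 2.45 ± 0.08 (SE, by edgeR, adjusted p = 1.77e-17), at the 98.0th percentile of all tested genes by size. Of the RefSeq genes within 60 kb of that start that were tested, Ppp1r3f, Flicr, Ccdc22 and Syp were all higher in Sora-Treg cells. Syp starts only just inside that limit, and Flicr and Ppp1r3f share exonic bases, so these are not calls of separate genes picked beforehand. Foxp3 was also called higher (edgeR adjusted p = 0.0405), a call that other fits did not keep, and had the smallest change. Of all tested genes, 29.7% were higher.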
